A study of Mus musculus with 16 samples.

Results

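The 7 clonal lines of MEF-1 and the MEF-1 parental culture were compared, which are 8 of the 16 libraries of the series. MEF-1 is a culture of male fibroblasts from a C57BL/6J embryo at stage E13.5, immortalised by passaging through crisis, with no genotype change or treatment in any group. The parental library stands for the uncloned culture and exists as a single value. Each clonal line was grown from 1 sorted cell of that culture, so each line is 1 clone and the 7 lines are the replicates. The libraries were chosen by their titles. DNA methylation was read by target capture bisulfite sequencing (tcBS-seq), in which probes pull down chosen DNA before bisulfite conversion turns unmethylated cytosines into thymines. A second culture from a female sibling embryo, MEF-2, with its parental library and 7 clonal lines, serves only as a comparison.

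DNA methylation sits on the cytosines of CpG pairs. After replication the new strand is methylated by Dnmt1, which Uhrf1 brings to half-methylated sites, while Dnmt3a and Dnmt3b methylate new sites and the Tet enzymes start the removal of the mark. CpG-rich promoters are mostly free of methylation in fibroblasts, whereas the bodies of genes and the space between them are mostly methylated.

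Neighbouring CpGs were joined into regions of 3 or more CpGs at most 100 bp apart, which gave 120624 regions from 1021772 of the 1203687 CpGs that had at least 10 reads in all 16 libraries. The methylation level of a region is the percentage of its CpG calls that were methylated. A region is called moved in a line where Fisher's exact test (two-sided) against the parental library gave a Benjamini-Hochberg adjusted p under 0.05 over all regions and the level differed by at least 20 points. For this test the CpG calls of a region were averaged, because CpGs that lie on the same read are not independent. Each such test sets 1 library against 1 library and covers counting error only. A region is called displaced where the level differed by at least 20 points whatever the test, a description that was added after the data had been seen.

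The sequences below are those of regions that the results turn on. They were read from the plus strand of the mm10 reference (GRCm38.p6) with 15 bases on each side, and the capitals mark the measured CpGs, which are all the CpGs of these windows. The first group is regions that moved in 3 or 4 lines, with the first 2 shown (an intergenic region whose nearest start is that of Npvf, and the Fto intron) gained and the others lost.
Npvf side, chr6:50767154-50767230: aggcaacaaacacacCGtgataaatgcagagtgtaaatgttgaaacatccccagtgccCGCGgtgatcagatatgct
Fto intron, chr8:91379822-91379920: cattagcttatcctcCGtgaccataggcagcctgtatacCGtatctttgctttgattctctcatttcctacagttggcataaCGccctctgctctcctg
Akr1c14 side, chr13:4035274-4035340: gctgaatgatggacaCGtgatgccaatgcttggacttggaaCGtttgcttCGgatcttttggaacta
Cacna1a intron, chr8:84474400-84474480: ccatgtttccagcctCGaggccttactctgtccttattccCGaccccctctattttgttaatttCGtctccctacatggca
Phlda1 side, chr10:111583600-111583744: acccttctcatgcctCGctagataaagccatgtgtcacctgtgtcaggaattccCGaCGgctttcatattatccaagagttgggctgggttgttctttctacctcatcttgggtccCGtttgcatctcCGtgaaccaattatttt
The second group is promoters that moved in 1 line, Cxcr4 and Nrsn1 upwards and Resf1 downwards.
Cxcr4 promoter, chr1:128592769-128592962: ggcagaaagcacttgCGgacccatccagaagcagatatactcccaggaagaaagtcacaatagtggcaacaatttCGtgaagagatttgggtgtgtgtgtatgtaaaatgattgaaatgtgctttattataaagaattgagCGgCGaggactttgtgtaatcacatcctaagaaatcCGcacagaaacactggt
Nrsn1 promoter, chr13:25270108-25270176: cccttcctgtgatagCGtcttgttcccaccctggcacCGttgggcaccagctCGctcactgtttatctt
Resf1 promoter, chr6:149308923-149309193: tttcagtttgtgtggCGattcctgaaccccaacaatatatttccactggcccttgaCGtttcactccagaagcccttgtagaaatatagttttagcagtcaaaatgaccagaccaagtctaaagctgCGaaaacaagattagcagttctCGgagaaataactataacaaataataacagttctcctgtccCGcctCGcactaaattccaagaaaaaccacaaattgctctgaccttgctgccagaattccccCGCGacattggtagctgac
The third group is regions displaced from the parental level in 4 to 7 lines without passing the test in most of them.
Pax6 promoter, chr2:105674785-105674908: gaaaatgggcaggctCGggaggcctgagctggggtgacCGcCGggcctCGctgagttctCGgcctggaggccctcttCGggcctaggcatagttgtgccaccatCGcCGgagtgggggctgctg
Bdnf promoter, chr2:109675782-109675868: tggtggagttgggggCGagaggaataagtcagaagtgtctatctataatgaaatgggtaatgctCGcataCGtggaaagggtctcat
Hspb8 intron, chr5:116421600-116421668: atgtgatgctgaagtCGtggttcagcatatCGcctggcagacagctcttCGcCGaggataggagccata
Csgalnact2 intron, chr6:118128313-118128400: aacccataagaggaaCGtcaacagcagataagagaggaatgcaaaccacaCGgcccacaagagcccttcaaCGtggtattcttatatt
Most of these windows hold 3 CpGs, and that of the Pax6 promoter holds 8 and has a GC content of 68.5%.

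Some lines stood closer to each other than others. The mean absolute difference between the levels of a pair of lines was 4.24 to 4.47 points within lines 1, 4 and 5 and 5.45 to 5.85 points between these and the others. It was 4.89 to 5.15 points within lines 2, 3 and 7. The parental library differed by 4.12 to 4.34 points from lines 1, 4 and 5 and by 4.91 to 5.18 points from lines 2, 3, 6 and 7. Median coverage of a CpG was 37 reads in the parental library and 26 to 36 reads in the lines. Of the genes set down as fibroblast markers, 16 had a measured promoter region and 10 of them had a parental level under 10%, as had 49.8% of all 11389 genes measured. Lines 1, 4 and 5 share a low coverage of chromosome 18 (0.504 to 0.529 of the expected value), which is not among the 16 chromosomes compared. Lines 2, 3, 6 and 7 had 0.934 to 1.025 there, and the parental library lay between the 2 sets at 0.722. Whether lines 1, 4 and 5 came from a common part of the parental culture was not tested.

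Few regions passed the test, and those that moved did so mainly in lines 2, 3, 6 and 7 and mainly downwards. A region without a call is not shown to have stayed at the parental level, since calls depend on depth. Line 2 had 172 moved regions (0.143% of those tested), line 6 had 111 (0.092%), line 3 had 102 (0.0846%) and line 7 had 78 (0.0647%). Line 4 had 3 (0.00249%), line 1 had 2 (0.00166%) and line 5 had 1 (0.000829%). Losses outnumbered gains with 138 (0.114%) to 34 (0.0282%) in line 2 and 84 (0.0696%) to 18 (0.0149%) in line 3. They did so with 82 (0.068%) to 29 (0.024%) in line 6 and 62 (0.0514%) to 16 (0.0133%) in line 7. Line 1 had 2 losses and 0 gains, line 4 had 2 and 1, and line 5 had 0 and 1. The signs of these lines thus rest on 3 or fewer regions each. The share of regions gained minus the share lost was -0.0321 ± 0.0332 percentage points (SD, n = 7) and negative in 6 of 7 lines. An exact sign-flip test gave p = 0.04688, and this call was lost when any line other than line 5 was left out (range of the difference over the 7 omissions -0.0376 to -0.0231 points) and when every CpG call was counted (p = 0.1094, exact sign-flip test). It was also lost with a minimum of 30 points, CpGs at most 50 bp apart, 5 or more CpGs, the chromosomes of even coverage alone or without regions of high coverage (exact sign-flip p from 0.0625 to 0.125). All 7 values were taken against the same parental library, so they are not independent. The median parental level of all regions was 62.6%, which leaves more room below than above, and its part was not tested. Of all 120624 regions, 399 (0.331%) moved in at least 1 line. Among these, 306 were only lost (0.254% of all regions), 92 were only gained (0.0763%) and 1 went both ways. Lines 1, 4 and 5 took part in 6 of the 399.

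**Figure D1:**
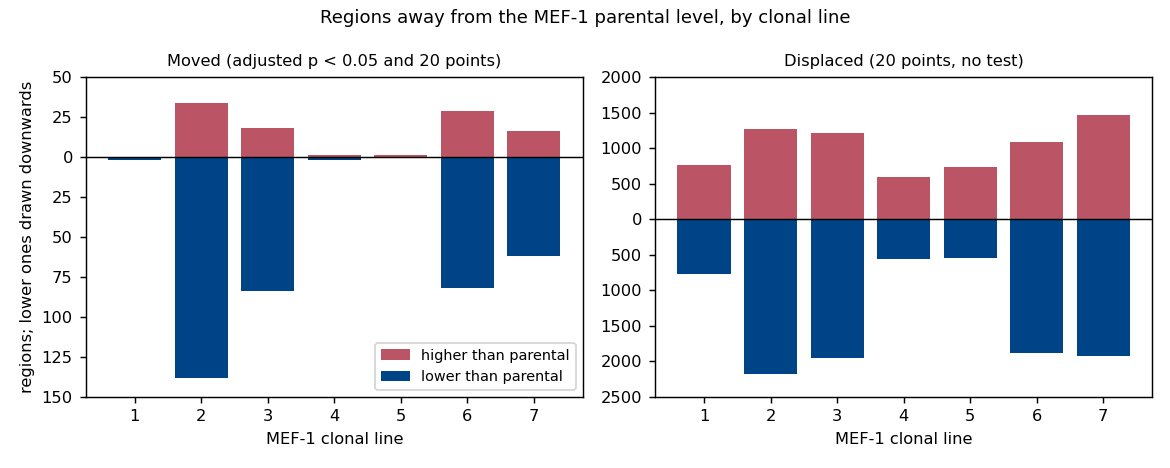
Number of regions that lay higher (red, upwards) or lower (blue, downwards) than the MEF-1 parental library in each clonal line, moved on the left and displaced by size alone on the right. Lines 2, 3, 6 and 7 have 78 to 172 moved regions and lines 1, 4 and 5 have 1 to 3.

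By size alone lines 2, 3, 6 and 7 again had the most. Line 2 had 3453 displaced regions (2.86%), line 7 had 3386 (2.81%), line 3 had 3167 (2.63%) and line 6 had 2976 (2.47%). Line 1 had 1537 (1.27%), line 5 had 1277 (1.06%) and line 4 had 1168 (0.968%). The share displaced upwards minus the share downwards was -0.317 ± 0.373 points (SD, n = 7), negative in 5 of 7 lines (exact sign-flip test, p = 0.1094). Lines 4 and 5 had more gains than losses (601 to 567 and 735 to 542). The middle region differed from the parental level by 2.67 to 3.23 points per line. The lowest median coverage was that of lines 1 and 7 (26 and 27 reads).

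Most moved regions were called in a single line. Of the 399 moved regions, 348 passed the test in exactly 1 line, of which 259 were lost and 89 gained. A further 34 passed in 2 lines, 15 in 3 lines and 2 in 4 lines, so that 51 (0.0423%) passed in 2 or more lines and none in 5, 6 or all 7. All 7 tests share the same parental library. With lines 3 and 7 left out, 272 regions passed in exactly 1 line, and with lines 1, 4 and 5 left out 1 region passed in all remaining lines. A model of the 7 lines as replicates against the parental value (quasi-binomial F-test) called 0 regions, with 292 at an unadjusted p under 0.05 (0.242%), and limma on arcsine square root levels also called 0, with 2480. Moderating the dispersion also gave 0, with 3915. At the median depth of the parental library even a full switch from one end of the scale to the other would reach 5.85e-06 in this F-test, whereas a single call needs 4.15e-07. The count of 0 from this F-test therefore says nothing about how stable regions of that depth are. Such a limit was not computed for limma or for the moderated dispersion. The smallest adjusted p of the F-test with moderated dispersion was 0.0954, and no conclusion on stability is drawn from these counts.

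Of the 17 regions (0.0141%) that passed in 3 or 4 lines, 13 did so in lines 2, 3 and 7 together. They comprised 14 losses and 3 gains, and lines 1, 4 and 5 were called at 1 of them. The regions were chosen by these calls, so that called lines lie apart from the others is a description only.

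The largest gain among them lay in intergenic DNA (chr6:50767169-50767215, 3 CpGs), where the nearest protein-coding start, 112753 bp away, is that of Npvf, which encodes a neuropeptide. The parental level was 26.5% (95% Wilson interval 14.6 to 41.1%), and lines 1 to 7 had 33.3, 86.8, 80.2, 20.2, 35.9, 35.9 and 90.9%. Lines 2, 3 and 7 rose by 59.5 points on average (Fisher's exact test, adjusted p = 0.005417, 0.01496 and 0.003345) and did not overlap the other 4 lines, which lay near the parental level. The parental library had 39 reads per CpG here, and 3 of 3 CpGs moved by at least 20 points.

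In an intron of Fto (chr8:91379837-91379905, 3 CpGs), an RNA demethylase, the parental level was 76.5%. Lines 2, 3 and 7 stood at 99.6, 97.0 and 98.0% and lines 1, 4, 5 and 6 at 77.3, 63.0, 58.3 and 83.8%. Lines 2, 3 and 7 rose by 21.7 points on average and lay above all the others, which themselves spanned 58.3 to 83.8%. The remaining gain was intergenic (chr13:65991099-65991207) and went from a parental 7.34% to 36.1, 36.0 and 54.0% in lines 2, 3 and 7, whereas the other 4 lines lay at 2.92 to 4.18%.

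Of the 2 regions that fell in 4 lines, one was intergenic on chromosome 13 (chr13:4035289-4035325, 13704 bp from the start of Akr1c14, an enzyme of steroid metabolism, and in an annotated pseudogene). Its parental level was 43.8% (Wilson interval 30.7 to 60.2%), and lines 2, 3, 6 and 7 had 4.55, 2.17, 2.88 and 0%. The 0% of line 7 rests on 32 reads, which allows a level of up to 9.38%. Lines 1, 4 and 5 had 31.8, 38.1 and 29.8%, so the groups did not overlap, and the 4 lines fell by 41.4 points on average (adjusted p 0.003748 to 0.01492 by Fisher's exact test). The second (chr7:113461032-113461204, 4 CpGs, 69.4% of it masked as repeat) went from 35.4% to 6.77, 6.30, 4.03 and 3.54% in lines 2, 3, 4 and 6. Line 5 had 3.98% there without passing the test, and lines 1 and 7 had 19.7 and 27.4%. Coverage of chromosome 7 was 0.932, 0.821, 0.949 and 0.88 of the expected value in lines 2, 3, 4 and 6. It was 0.990 in line 5, 0.836 in line 1 and 0.854 in line 7, and its part in this result was not tested.

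Several losses in lines 2, 3 and 7 fell in genes. In an intron of Cacna1a (chr8:84474415-84474465), the pore subunit of a neuronal calcium channel, the parental level was 38.4% and the 3 lines had 4.81, 6.40 and 2.88% against 26.1 to 42.7% in the other lines. An intron of Anks1b (chr10:90024306-90024415), a synaptic scaffold protein, went from 37.5% to 2.58, 2.42 and 2.38%, with the other lines at 20.1 to 38.6%. An intron of Slc38a2 (chr15:96697255-96697350), an amino acid transporter, went from 40.7% to 5.49, 9.43 and 7.45%, with the other lines at 28.9 to 42.1%. An exon of Spg7 (chr8:123066451-123066568), a protease subunit of mitochondria, went from 40.8% to 12.4, 12.5 and 10.6%, with the other lines at 22.3 to 40.6%. In all 4 genes lines 2, 3 and 7 lay below every other line, while the parental value lay within 1 point of the range of the others or inside it. The place of lines 2, 3 and 7 follows largely from the choice of regions called lost in these lines.

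The other losses in 3 lines were intergenic. One on chromosome 10, 77386 bp from the start of Phlda1, had 5 CpGs that each moved by at least 20 points, with a parental 64.6% and 32.5, 22.5 and 29.7% in lines 2, 3 and 7. Line 6 lay at 39.8% there and lines 1, 4 and 5 at 56.8 to 61.1%. Near Npvf a second region (chr6:50626132-50626208) fell from 92.5% to 57.5, 56.5 and 57.1%, values close to the middle of the scale, whereas lines 1, 4, 5 and 6 stayed at 92.7 to 96.9%. Near Atp1b1 (chr1:164481746-164481791) the lines that fell were 2, 3 and 6, with 7.60, 10.7 and 9.95% against a parental 48.2%, and lines 1, 4, 5 and 7 lay at 37.8 to 56.3%. On chromosome 5 (chr5:145302260-145302409) the parental 35.4% fell to 10.7, 8.18 and 4.88% in lines 2, 3 and 7, with coverage of that chromosome at 1.378 of the expected value in line 7. The last 4 regions also fell in 3 lines, by 48.8 points next to Gm10715, 33.7 points near Gm10139, 23.2 points near Raet1d and 22.0 points near Vmn1r234, the last at 212 parental reads per CpG.

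**Figure D2:**
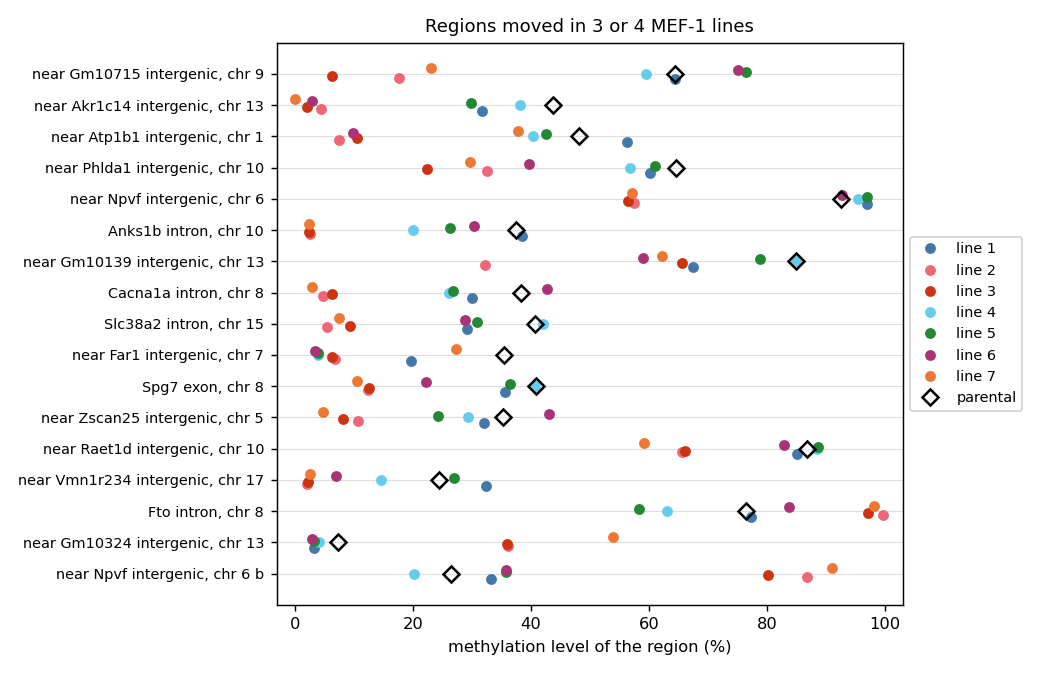
Methylation level (%) of the 17 regions that moved in 3 or 4 lines, with the parental library as an open diamond and each clonal line as a coloured point, named by gene or nearest protein-coding start. In most rows lines 2, 3 and 7 sit together at one end, for example at 2.38 to 2.58% in the Anks1b intron, while lines 1, 4 and 5 mostly sit closer to the parental value. The rows were chosen by the calls in these lines.

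Among promoter regions, which overlap the 1000 bp upstream of where a protein-coding transcript begins, 24 of 18526 (0.13%) moved in at least 1 line, which touches 25 of 11389 genes (0.22%). The 24 comprised 12 gains and 12 losses, and 23 of them passed in a single line. For comparison, 0.331% of all regions moved. No gene had a promoter region that moved in all 7 lines. The genes below were named after their values had been seen, since no promoter or transcript region met the rule that had been set for naming.

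The largest promoter gain was at Nrsn1 (chr13:25270123-25270161, 60 bp from the start), which encodes a vesicle protein of neurons. The parental library had 0 of 24 reads methylated, which allows a level of up to 12.5%, and lines 1 to 7 had 16, 2.04, 8.33, 7.27, 1.72, 75.9 and 1.35%. Line 6, the one line that passed the test, rose by 75.9 points (Fisher's exact test, adjusted p = 0.0004364), and lay far above every other line.

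At Cxcr4 (chr1:128592784-128592947, 5 CpGs, 572 bp before the start), the receptor of the chemokine Cxcl12, the parental level was 2.13% and line 3 rose to 45.0% (adjusted p = 0.0341, Fisher's exact test). Lines 2 and 7 had 22.0 and 23.8% without passing, and lines 1, 4, 5 and 6 had 1.83 to 3.33%. The promoter of Ulk2, a kinase that starts autophagy, had the same order, with a parental 4.48%, 41.5% in line 3 and 16.7 and 23.6% in lines 2 and 7, against 1.30 to 3.77% in the others. At the histone gene Hist1h3a the parental 6.41% rose to 36.1% in line 7, and lines 2 and 3 had 12.0 and 16.3% while the others had 0.427 to 4.85%. At Knop1 line 7 rose from 3.34 to 34.2%, and lines 2 and 3 had 14.2 and 10.8% (coverage of chromosome 7 was 0.854 in line 7). In these 4 promoters the 3 highest values were those of lines 2, 3 and 7, though a single line passed the test at each. The 4 were put together for this order from the 12 promoter gains, and Nrsn1 did not have it. How often the order occurs among all promoters was not counted.

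Other gains began from higher levels. Rad52, a protein of recombination repair, rose from 28.6 to 65.3% in line 2. With every CpG call counted as a separate read, Rad52 was called in 3 lines. Itm2b, a membrane protein, rose from 10.6 to 48.5% in line 6, with line 7 at 41.7% and line 4 at 36.9% but lines 1 and 5 at 5.69 and 5.37%. The transcription factor gene Zfp148 rose from 22.2 to 51.5% in line 6, where coverage of chromosome 16 was 0.763 of the expected value. Zfp180 in line 2 and Sec61a2 in line 6 reached the top of the scale, at 100.0 and 98.9% from 71.1 and 70.9%. Hecw1 rose by 21.2 points in line 2 and Alg9 by 20.6 points in line 6.

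Promoter losses started at parental levels of 34.8 to 81.3%. The Resf1 promoter (chr6:149308938-149309178, 8 CpGs), a gene for a factor that silences retroelements, had a parental level of 52.2% (Wilson interval 39.6 to 63.4%). Lines 1 to 7 had 51.7, 32.5, 53.4, 34.4, 36.5, 43.9 and 13.8%, and line 7, the one line that passed the test, fell by 38.4 points (adjusted p = 0.02385, Fisher's exact test). Lines 2, 4 and 5 also lay below the parental interval without passing. Tacc1, a centrosome protein, fell from 66.9 to 28.3% in line 6. Tnfaip8l2, an immune regulator, fell from 55.3 to 20.2% in line 3, and line 7 had 22.5%. Cltb, a clathrin light chain, fell from 65.8 to 32.3% in line 2. Ipo8, a nuclear import receptor, fell from 49.7 to 20.7% in line 2 while the other lines stayed at 41.9 to 57.1%. Rcbtb2 fell from 49.3 to 17.7% in line 6 and Lrrc39, a muscle protein, from 53.9 to 22.8% in line 2. With every CpG call counted as a separate read, Tacc1 and Tnfaip8l2 were called in 3 lines and Cltb and Lrrc39 in 2. Ipo8 and Rcbtb2 were still called in 1 line. The shared promoter of Apba3 and Mrpl54, the latter a mitochondrial ribosomal protein, fell from 78.6 to 48.8% in line 2. The promoters of Gm8108, Gm3248 and Gm8206 fell in lines 6, 4 and 1 in turn, but they had 476.5 to 642.5 parental reads per CpG, and libraries covered them over 5 times as deeply as the median region. These values are uncertain, since near-identical gene copies can share reads.

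Ankrd28, a regulatory subunit of protein phosphatase 6, was the only gene with a promoter region that moved in 2 lines. At chr14:31780274-31780398 (4 CpGs, which also overlap a UTR and coding sequence) the parental level was 68.1%, and lines 1 to 7 had 56.1, 27.0, 20.2, 64.8, 67.2, 31.5 and 45.5%. Lines 2 and 3 fell by 44.5 points on average (adjusted p = 0.008686 and 0.00207, Fisher's exact test), and line 6 had a similar level without passing. A second promoter region of the gene (chr14:31780899-31781094, 6 CpGs) had a parental 38.2%, with 4.98 to 9.35% in lines 2, 3, 6 and 7 and 35.2 to 37.6% in lines 1, 4 and 5. The Dph3 promoter, inside the transcript of Oxnad1 on the same chromosome, had 27.8% against 2.70 to 7.30% and 29.3 to 37.1% in the same sets of lines. Coverage of chromosome 14 was 0.818 of the expected value in line 2 and 0.99 to 1.04 in lines 3, 6 and 7. In MEF-2 these 3 regions had parental levels of 15.3, 1.58 and 1.47%.

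**Figure D3:**
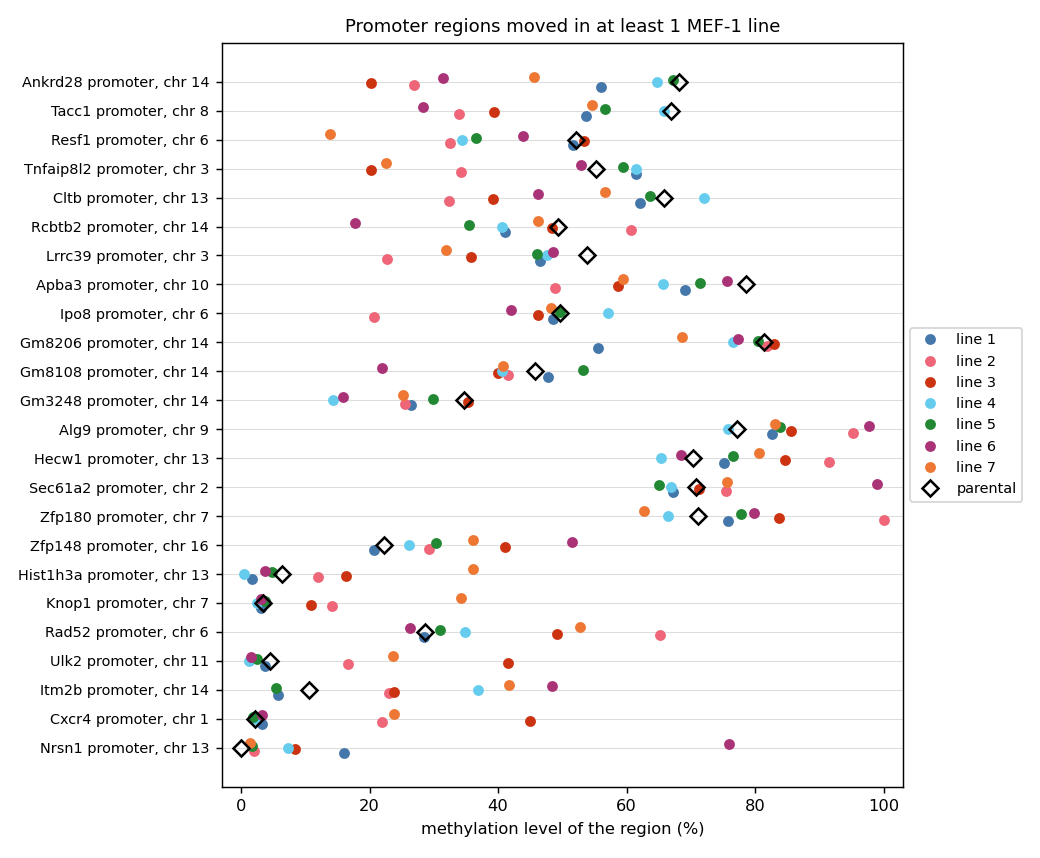
Methylation level (%) of the 24 promoter regions that moved in at least 1 line, with the parental library as an open diamond and each clonal line as a coloured point, ordered by the change in the moved lines. Losses at the top start at parental levels of 34.8 to 81.3%, and the Nrsn1 row at the bottom has line 6 at 75.9% with every other line at or under 16%.

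Outside promoters, 161 of 44531 intron, 20 of 15690 exon and 194 of 41877 intergenic regions moved in at least 1 line. In 17 genes a region outside the promoter fell in 2 lines, which includes Zfp534 at 196.3 parental reads per CpG. The deepest of these falls was in an intron of Enc1, a neuronal actin-binding protein, with a parental 73.3% and 27.9 and 28.2% in lines 2 and 7. Lines 3 and 6 had 36.4 and 43.0% and lines 1, 4 and 5 had 58.5 to 81.0%. A coding region of Sgk1, a kinase induced by serum and glucocorticoids, fell from 66.7% to 21.2 and 23.7% in lines 2 and 6. An exon of Rplp1, a ribosomal stalk protein, fell from 53.9% to 19.6 and 19.7% in lines 2 and 3, with line 7 at 22.3% and the others at 48.7 to 58.7%. Introns of the cell adhesion genes Ctnna2, Cntn3 and Cntn1 fell from 89.3, 32.3 and 39.8% by 38.2, 29.5 and 32.4 points in 2 lines each. Introns of Dst, Adh7, E130308A19Rik, Corin, Cpe, Lhfpl2, Nsmce2, Rpl35a and H2-Q7 also fell in 2 lines each, by 26.6 to 39.8 points.

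In 18 genes a region outside the promoter moved by at least 50 points in 1 line. The gains were at Tead1, Dapk2 and Mecom. An intron of Tead1, a transcription factor of the Hippo pathway, had a parental 30.0% and the lines had 41.3, 63.1, 93.8, 29.4, 28.7, 4.65 and 76.0%. Line 3 rose there (adjusted p = 0.001916, Fisher's exact test; coverage of chromosome 7 was 0.821 in line 3), and line 6 lay below the parental level without passing. An intron of Mecom, a transcription factor of blood stem cells, rose from 17.6 to 76.1% in line 7, and all other lines lay at 30.1 to 57.7%. An intron of the kinase gene Dapk2 rose from 36.2 to 98.4% in line 6, and the other lines, at 55.6 to 81.3%, were all above the parental level too.

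Of the 15 losses in this set, the largest was in a UTR of Lin28a, an RNA-binding protein that blocks let-7 processing, which fell from 72.1 to 7.84% in line 6. Another was an intron of Mapk9, the stress kinase JNK2, which fell from 73.1 to 14.2% in line 6 (6 CpGs, adjusted p = 3.071e-11 by Fisher's exact test) while the other 6 lines had 59.0 to 71.4%. Coverage of chromosome 11 in line 6 was 0.884 of the expected value. An intron of Bdnf, a neurotrophin, fell from 55.1 to 1.54% in line 2, and lines 3, 7 and 6 had 8.11, 12.7 and 24.3%. An intron of Runx1, a transcription factor of blood cells, fell from 63.1 to 10.1% in line 7, with lines 2 and 3 at 24.1 and 27.4%. An intron of the DNA repair gene Xpc fell from 63.6 to 10.8% in line 3, with the other lines at 37.8 to 56.9%. Smap2, Csmd3, Ppp2r2a, Pde3b, Ube4b and H2-Ob fell in line 2, Pkd2 and Iqcm in line 6, and Sidt1 and Hkdc1 in line 3. At Sidt1 and Csmd3, lines 3 and 2 were the lone departures, at 45.3 and 28.9% against 84.2 to 100.0% and 70.3 to 92.5% in the other lines.

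By size alone, 11656 regions (9.66%) were displaced in at least 1 line, 342 (0.284%) one way in 4 or more lines, and 24 (0.0199%) one way in 6 or 7 lines. In all 7 lines 7 regions were displaced downwards (0.0058%) and 0 upwards. With 1 parental library these displacements hold the sampling error of that library in every line, and none was called for a common shift. When every CpG call counted as a separate read, 5 regions were called lost in all 7 lines.

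Of the 7 regions displaced in all lines, the Hspb8 intron (chr5:116421615-116421653, 4 CpGs), a gene for a small heat shock protein, had a parental 76.3% (Wilson interval 53.1 to 88.8%, 20 reads per CpG). Lines 1 to 7 had 30.0, 32.5, 27.4, 30.0, 51.5, 41.5 and 32.9%, all under that interval. The intron of Csgalnact2, an enzyme of chondroitin sulphate synthesis, had a parental 46.8% (interval 35.0 to 60.1%, 57 reads) and lines at 18.3, 3.79, 13.51, 13.8, 9.56, 26.6 and 17.7%, of which line 2 passed the test. A UTR of Hkdc1, a hexokinase family gene, had 54.2% in the parental library and 0 to 28.6% in the lines, where the 0% of lines 2 and 3 rests on 18 and 31 reads and allows up to 16.7 and 9.68%. An intron of Atp1b1, a sodium pump subunit, had 48.7% and 1.16 to 28.3%. The other regions displaced in all 7 lines were intergenic. In MEF-2 the Hspb8 intron stood at 90.4% in the parental library and 84.9 ± 7.09% (SD, n = 7) in the lines.

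Promoter regions displaced one way in 4 or more lines numbered 25, in 24 of 11389 genes (0.211%). The Pax6 promoter (chr2:105674800-105674893, 8 CpGs), of a transcription factor of eye and brain, had a parental 29.0% (interval 13.8 to 50.0%) and 65.6, 55.8, 65.2, 40.3, 43.1, 79.7 and 47.4% in lines 1 to 7. All lines lay above the parental level and lines 1, 2, 3 and 6 by at least 20 points. The Bdnf promoter (chr2:109675797-109675853) had a parental 62.3% and 38.8, 23.7, 41.1, 38.5, 35.0, 32.6 and 44.2%, all below it. The Nrn1 promoter (chr13:36732187-36732490, 16 CpGs), of a protein that promotes neurite growth, had 35.6% (interval 22.2 to 53.4%) and 11.3, 9.17, 12.6, 21.4, 16.8, 8.08 and 6.51%. At Dock9, an activator of Cdc42, the parental 39.9% stood against 11.4 to 26.6% in the lines, and at Irf5, an interferon regulatory factor, 83.8% stood against 47.6 to 73.8%. Rffl, a ubiquitin ligase, had 27.7% and 1.10 to 16.8%. Upward displacement in 4 or 5 lines was seen at Lrch1 (53.9% against 61.7 to 76.8%), Slc22a7, Osbpl3, Abr, Eri1, Fah, Ctsh, Dbn1 and 2510009E07Rik. Downward displacement in 4 or 5 lines was also seen at the promoter of the imprinted gene Snurf, which is also an exon of Snrpn, with 65.1% against 26.0 to 58.3%, and at Hps3, Rfx5, Melk, Tbcel, Pttg1ip and Pwp2. At Snurf the parental library had 27.7 reads per CpG, and the MEF-1 lines had a mean of 42.0%. The MEF-2 parental library had 38.2% there and the MEF-2 lines 42.2 ± 10.6% (SD, n = 7). Coverage of chromosome 7 was 0.821 to 0.990 in the MEF-1 lines, and its part was not tested.

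**Figure D4:**
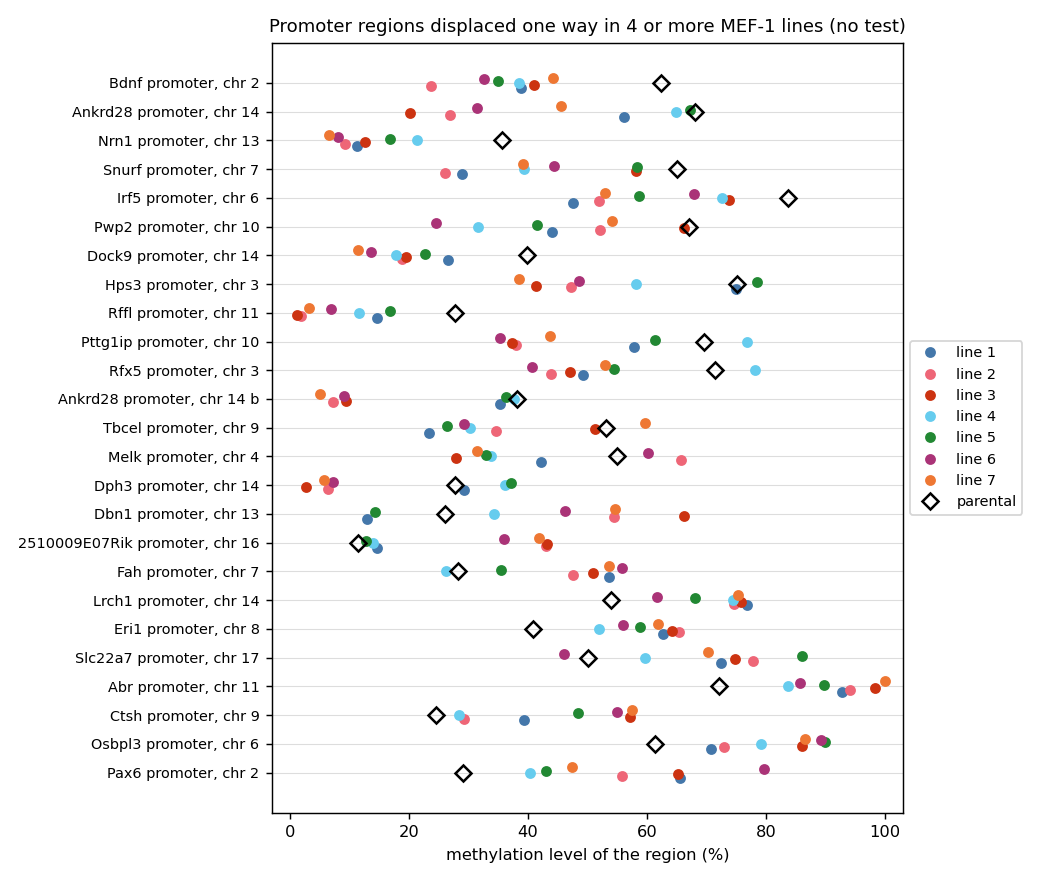
Methylation level (%) of the 25 promoter regions displaced one way by 20 points or more in at least 4 lines, chosen by size with no test, with the parental library as an open diamond and each clonal line as a coloured point. In the Pax6 row all 7 lines lie right of the parental 29.0%, and in the Nrn1 row all 7 lie left of the parental 35.6%.

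Gene groups were read from promoter regions, as counts of genes displaced in at least 1 line (8.08% of all 11389 genes measured). No gene of the 15 groups had a promoter region that passed the test, which 0.22% of all genes had, so a count of 0 does not set the groups apart. The imprinted genes had 9 of 35 (25.7%), at a median parental level of 42.8%, and T-box, Runx and Zic factors had 4 of 18 (22.2%). Skeletal muscle genes had 2 of 11, blood and endothelial genes 3 of 18, Wnt, Bmp, Tgf-beta, Fgf and Hedgehog signalling genes 6 of 49 and germline genes 4 of 35. Forkhead, Gata and Sox factors had 3 of 30, genes of the methylation machinery 2 of 20, homeobox and paired-box regulators outside the Hox clusters 5 of 56 and endoderm and epithelial genes 2 of 23. Fibroblast genes had 1 of 16, ribosomal protein genes 3 of 56, Hox genes 1 of 34, senescence control genes 1 of 43 and neural genes 0 of 20. The median difference of a group's genes from the parental level ran from -0.67 points (fibroblast genes) to 1.43 points (Hox genes), beside 0.10 points over all genes. A parental level under 10%, where losses of 20 points cannot occur, was found in 49.8% of all measured genes and in 17.1% of imprinted genes.

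Within these groups the displacements were mostly in 1 or 2 lines. Among imprinted genes Gnas had a parental 57.5% and 25.3% in line 1 and 36.8% in line 2, Peg12 had 26.9% and 67.1% in line 2, 64.9% in line 6 and 51.7% in line 4, and Kcnq1 had 50.0% and 19.3% in line 3. Peg12 and Kcnq1 lie on chromosome 7, whose coverage was 0.932, 0.821, 0.949 and 0.88 in lines 2, 3, 4 and 6. Its part in these values was not tested. Herc3 lay at 51.2% in the parental library, 27.3% in line 5 and 75.9% in line 7. Of the homeobox genes, Lhx6 (35 CpGs) had a parental 19.4% and 50.8 and 45.0% in lines 3 and 7, with lines 1 and 4 at 15.9 and 17.5%, and Nkx6-1 (19 CpGs) had 22.2% and 45.4% in line 2. The pluripotency gene Pou5f1 (9 CpGs) had 20.5% and 44.0% in line 5, and Nanog had 48.6% and 27.8% in line 3. Among epithelial genes, the adhesion gene Cdh1 had 18.2% and 40.2% in line 4 and 38.5% in line 7, and Cldn7 had 4.69% and 25.0 and 29.1% in lines 2 and 7.

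The share displaced differed by place and by starting level. Promoter regions were displaced less often than intergenic regions in 7 of 7 lines, with 0.572 to 1.48% against 1.28 to 3.67% per line and a difference of -1.45 ± 0.633 percentage points (SD, n = 7). An exact sign-flip test gave p = 0.01562, the smallest it can give with 7 lines. Among regions with a parental level of 10 to 90% the difference was -0.87 points, with the same exact p of 0.01562. For regions that passed the test the difference was -0.0612 ± 0.0651 points (p = 0.09375, exact sign-flip test, negative in 5 of 7 lines). Promoter and intergenic regions were not matched for number of CpGs or depth, and all 7 lines share the parental library. A difference by place therefore cannot be told apart from a difference in these.

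Regions at a parental 40 to 60% were displaced most often, in 5.36 ± 1.97% of cases per line (SD, n = 7), and those at 0 to 10% least often, in 0.229 ± 0.111%, where only gains of this size are possible. The counting error of a level is largest in the middle of the scale, so this order does not measure how stable the regions are. At 40 to 60% losses took 1.33 to 4.43% and gains 1.55 to 3.43% of regions per line. Lines 2, 3, 6 and 7 each lost more than they gained there, whereas lines 1, 4 and 5 each gained more than they lost. At 60 to 90% the shares per line were 0.720 to 3.03% lost and 0.325 to 0.902% gained, and at 10 to 40% they were 0.362 to 1.53% lost and 1.26 to 2.98% gained. The classes were set on the same parental library from which the differences were taken, and many regions of these 2 classes lie too close to an end of the scale to move by 20 points towards it. More displaced gains in the low class and more displaced losses in the high class follow in part from this in all 7 lines, so these directions are a description only. Among regions that passed the test at 10 to 40%, losses outnumbered gains in line 2 (30 to 10), line 3 (22 to 4), line 6 (15 to 9) and line 7 (15 to 4). Line 4 had 2 losses and 1 gain, line 5 had 0 and 1, and line 1 had 0 of either.

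**Figure D5:**
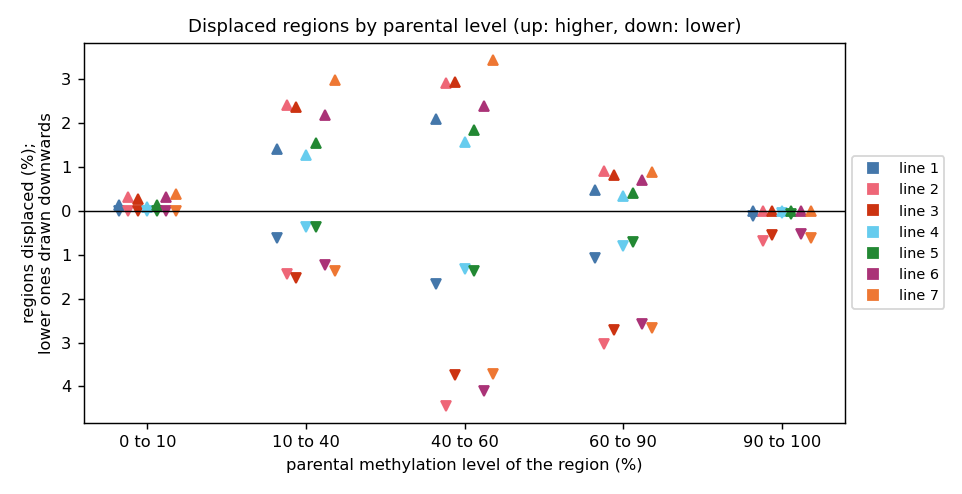
Share of regions (%) displaced upwards (triangles above 0) or downwards (triangles below 0) by 20 points or more in each clonal line, by the parental level of the region. Shares are highest at 40 to 60%, where line 2 has 4.43% lost, and lines 1, 4 and 5 lie closest to 0 in every class.

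Compared with all regions, the 399 moved regions were short and deeply covered. A share of 69.9% had 3 CpGs, beside 25.2% of all regions, and the median parental coverage was 76 reads beside 38.9. They held 48.6% intergenic regions beside 34.7%, and 6.02% promoter regions beside 15.4%. Since the test needs depth, these shares describe what could be called, and no test was made of them. Under the rule for naming, which asked for 5 or more CpGs and at least 20 reads in each library, 46282 regions were eligible, of which 47 moved.

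MEF-2 lines departed more from their own parental library. A MEF-1 line had 0.0555 ± 0.0556% of regions moved (SD, n = 7) and a MEF-2 line 0.188 ± 0.0604%, a difference of -0.133 points (exact permutation test of 7 against 7 lines, p = 0.001748). With reads thinned to at most 20 this call was lost (exact permutation test, p = 1). By size alone the shares were 2.01 ± 0.864% and 3.75 ± 0.213%, a difference of -1.74 points (p = 0.0005828, the smallest the exact permutation test can give), and every MEF-1 line lay below every MEF-2 line. Without lines 1, 4 and 5 the differences were -0.0925 points (p = 0.02424, exact permutation test) for moved and -1.06 points (p = 0.00303, exact permutation test) for displaced regions. Each family was set against 1 parental library, so a difference between the families cannot be told apart from a difference between these 2 libraries. The families also differ in embryo and sex, which cannot be told apart from it either.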

How the data were processed

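The authors captured target DNA, converted it with bisulfite and sequenced 150 bp paired reads. According to the methods and the submitters' processing notes, they trimmed reads with Trim Galore 0.6.0, aligned them to mm10 with Bismark and kept reads with a mapping quality of at least 10. The deposited values are raw counts of methylated and unmethylated reads per CpG, without normalization. The counts of all 1203687 CpGs were equal in the table of the series and in the library tables, and 2 further columns of per-sample values (coverage and percentage methylated) were not used. Removal of PCR duplicates is not stated. Intervals, floors and Fisher's exact test take each read as a separate molecule and cover counting error only. If duplicates were kept, they understate that error too.

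Groups came from the sample titles. The members and gene lists were chosen with earlier results of these data known. For each region, methylated and total calls were divided by its number of CpGs and rounded before Fisher's exact test. The common shift was a quasi-binomial F-test with 6 residual degrees of freedom and a dispersion of at least 1. Benjamini-Hochberg adjustment ran over all 120624 regions. Genes came from GENCODE M21. Relative coverage is the coverage of a chromosome, scaled to the median chromosome of its library, over the median of the MEF-2 clonal lines. Chromosomes 12, 18, 19, X and Y were not analysed here. The rule for named genes asked for regions of 5 or more CpGs with at least 20 reads in each library that moved in all 7 lines, in 1 line with the others within 10 points, in 3 to 6 lines, both ways, or in 4 or more lines in a gene list, and apart from the part on both ways it took promoters, exons or transcripts of protein-coding genes only. It found 0 regions, so genes are named for the number of lines or the size of the change. Nothing in the labels says that lines differ in anything but their founding cell, and p-values over lines measure the spread between these lines. Some values are not reported here. Scripts were tested on simulated data. Analyses used Python 3.11.15, NumPy 2.4.6, SciPy 1.17.1, R 4.3.3 and limma 3.58.1.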

Additional observations from a re-analysis of the deposited data

Results flagged for a closer look

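The difference between MEF-1 and MEF-2 lines was tested directly and drew attention, at -0.133 percentage points for moved and -1.74 points for displaced regions.

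Among 125 sets of 7 lines examined for a line that stood far from the others, 14 did so. Chance gives about 1 in 20, and many of these regions had been picked because 1 line differed, so no test is drawn from them. The line that stood apart was line 6 at the promoters of Sec61a2 (98.9%), Nrsn1 (75.9%) and Gm8108 (22.0%) and in the Mapk9 intron (14.2%). It was line 2 at the Ipo8 promoter (20.7%), the Smap2 exon (33.3%) and the Csmd3 intron (28.9%), line 3 in the introns of Xpc (10.8%) and Sidt1 (45.3%), and line 7 at the Knop1 promoter (34.2%). It was line 4 at the Rfx5 promoter (78.2%) and in the intergenic region near Clrn3 (49.6%), and line 5 in the Zfhx3 intron (16.4%) and near Inpp5a (13.3%). At these last 4 regions the line that stood apart was the one closest to the parental level.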

How the results depend on the processing

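The number of lines that passed at 41 regions (17 in 3 or more lines and 24 promoters) fell to 0 at 40 of them when libraries were thinned to at most 20 reads and at 14 of them with a minimum of 30 points, and no direction reversed. Thinning left 2 regions moved in exactly 1 line and a difference between the families of -0.000118 points (exact permutation test, p = 1), so the calls rest on deep regions. The share moved per line was 0.142% with 20 reads per CpG in all libraries, 0.1% with CpGs at most 50 bp apart, 0.00447% with 5 or more CpGs, 0.000237% with at most 20 reads, 0.0960% without lines 1, 4 and 5, 1.81% with every CpG call counted, 2.01% by size alone and 2.69% by size without lines 1, 4 and 5. Regions moved in exactly 1 line numbered 593 with CpGs at most 50 bp apart, 20 with 5 or more CpGs, 7780 with every call counted, 104 on chromosomes 2, 3, 4, 9 and 10, whose coverage in the MEF-1 libraries stayed within 0.1 of the expected value, 8127 by size alone and 7171 by size without lines 1, 4 and 5. Regions moved in all lines kept numbered 5 with every call, 1 without lines 1, 4 and 5, 7 by size and 119 by size without these lines, with 9 genes then having such a promoter.

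The gained minus lost share was no longer called (exact p from 0.0625 to 0.1875) at 30 points (-0.0225), 50 bp (-0.0330), 5 CpGs (-0.00447), every call (-0.321), these 5 chromosomes (-0.0314), without regions of high coverage (-0.0292), without lines 1, 4 and 5 (-0.0557), without lines 3 and 7 (-0.0264), by size (-0.317) and by size without lines 1, 4 and 5 (-0.599), and its range with 1 line left out was -0.0376 to -0.0231, where the call held without line 5. With 4 lines the smallest exact p is 0.125 and with 5 lines 0.0625, so no call was possible without lines 1, 4 and 5 (negative in 4 of 4 lines) or without lines 3 and 7. The promoter minus intergenic share became called (exact p 0.01562 to 0.03125) at 30 points (-0.0417), 20 reads (-0.129), 50 bp (-0.0939), every call (-1.32), without high coverage (-0.0621), with a promoter of 250 bp before to 50 bp after the start (-0.0635) and by size (-1.45). It was not called with 5 or more CpGs (-0.00390, exact p = 0.375), without lines 3 and 7 (-0.0489, exact p = 0.375) or with any 1 line left out (-0.0723 to -0.0440, exact p from 0.0625 to 0.1875). The cause was not tested. The common shift called 0 regions under the alternatives run (limma and moderated dispersion included) and was not run on thinned reads. The settings by size and without lines 3 and 7 were chosen after seeing the data. No paired analysis was possible because the parental culture is a single library, so that it and the lines share fewer than 2 replicate numbers.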
